A study of Mus musculus with 6 samples.

Results

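The genes described here are 9 members of the transforming growth factor beta (TGF-beta) pathway, out of 12393 genes measured: the ligands Tgfb1, Tgfb2, Tgfb3 and Inhba, the receptors Tgfbr1, Tgfbr2 and Tgfbr3, the latency protein Ltbp1 and the target Tgfbi. They were chosen as upstream regulators of matrix and smooth muscle genes, and each was read at whichever of its probe sets was brightest on average across the 6 arrays, out of 18 probe sets in all. The arrays were hybridised with RNA from cultured cells of C57BL/6 mouse embryos at embryonic day 13.5, in 3 groups of 2 biological replicates. Stomach and intestine control cells came from embryos labelled Rosa26+/Barx1 or Bapx1+/Cre, and which of these each sample carried is not stated, nor whether embryos were pooled. The third group, called Barx1 intestine here, was intestine of the genotype Rosa26+/Barx1;Bapx1+/Cre, in which Cre from the Bapx1 (Nkx3-2) locus switches on the stomach transcription factor BARX1 from Rosa26. In all groups the tissue was digested with proteases to deplete endoderm and grown for 3 days with 20% serum, so the values describe mixed cultures rather than fresh gut. In bulk RNA of this kind, fewer cells of a type and less RNA per cell cannot be told apart.

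TGF-beta ligands are made as precursors that stay bound to their own propeptide and, through it, to latent TGF-beta binding proteins in the matrix until they are released. The free dimer brings together the type II receptor (Tgfbr2) and the type I receptor (Tgfbr1), which phosphorylates Smad proteins; activins, the dimers of the Inhba product, use a parallel pair of activin receptors and the same Smads. In gut mesenchyme the pathway is known for its part in matrix production and in smooth muscle and myofibroblast differentiation.

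All values are log2 expression values, and a difference of 1 is a doubling of signal on the array. A gene passed the test, or was called, at a Benjamini-Hochberg adjusted p under 0.05 over all genes of that comparison in a limma fit of all 6 arrays. The lower quartile of the arrays lay at 4.72 to 4.76, and a level below it was not shown to be above background. Barx1 checked the labels, with 9.82 and 9.79 on the stomach arrays, 5.13 and 4.93 on the intestine arrays and 8.66 and 8.79 on the Barx1 intestine arrays. All 11 markers of gut mesenchyme lay above the lower quartile on every array. Genes of other cell types were measured as well. The summed linear signal of 16 macrophage genes was 6003 to 7613 on the stomach arrays, 10266 to 19599.6 in intestine and 3408 to 6761 in Barx1 intestine, with 0 of 16 at or below the lower quartile on any array. The sum of 13 endoderm epithelium genes was 4663 to 7853, 11063 to 24134 and 7278 to 11431 in the same order, and that of 9 genes of enteric neurons and glia 1099 to 1129, 1652 to 2121 and 639.7 to 695.

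Tgfb2 was the only one of the 9 genes called in Barx1 intestine against both controls. It read 1.59-fold lower there than in intestine and 1.64-fold lower than in stomach, while the control means lay 0.04 apart. The 2 other TGF-beta ligands, Tgfb1 and Tgfb3, read slightly higher in Barx1 intestine and did not pass the test. Inhba was lower in stomach than in both kinds of intestine, by 1.19-fold and 1.23-fold. Tgfbi, Tgfbr1 and Tgfbr2 had their lowest means in Barx1 intestine, without a call. In stomach minus intestine 1 of the 9 genes was called, a lower one, against 16.9% of all genes (8.86% higher and 8.09% lower). Barx1 intestine minus intestine had 1 of 9 called lower, against 3.98% of all genes (1.86% higher and 2.12% lower). Barx1 intestine minus stomach had 1 called higher and 1 lower, against 5.2% of all genes (2.56% higher and 2.64% lower).

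With 2 arrays a group, arrays that do not overlap are common. In stomach minus intestine 5 of the 9 genes did not overlap, 1 of them higher and 4 lower, beside 64.1% of all genes (34.5% higher and 29.6% lower). For Barx1 intestine minus intestine it was 8 of 9, 4 higher and 4 lower, beside 52.4% (30.1% higher and 22.4% lower). For Barx1 intestine minus stomach it was 8 of 9, 3 higher and 5 lower, beside 58% (29.5% higher and 28.5% lower). The median difference of the 9 genes was 0.04, 0.05 and -0.09 in these comparisons, beside 0.02, 0.02 and -0.00077 over all genes.

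**Figure D1:**
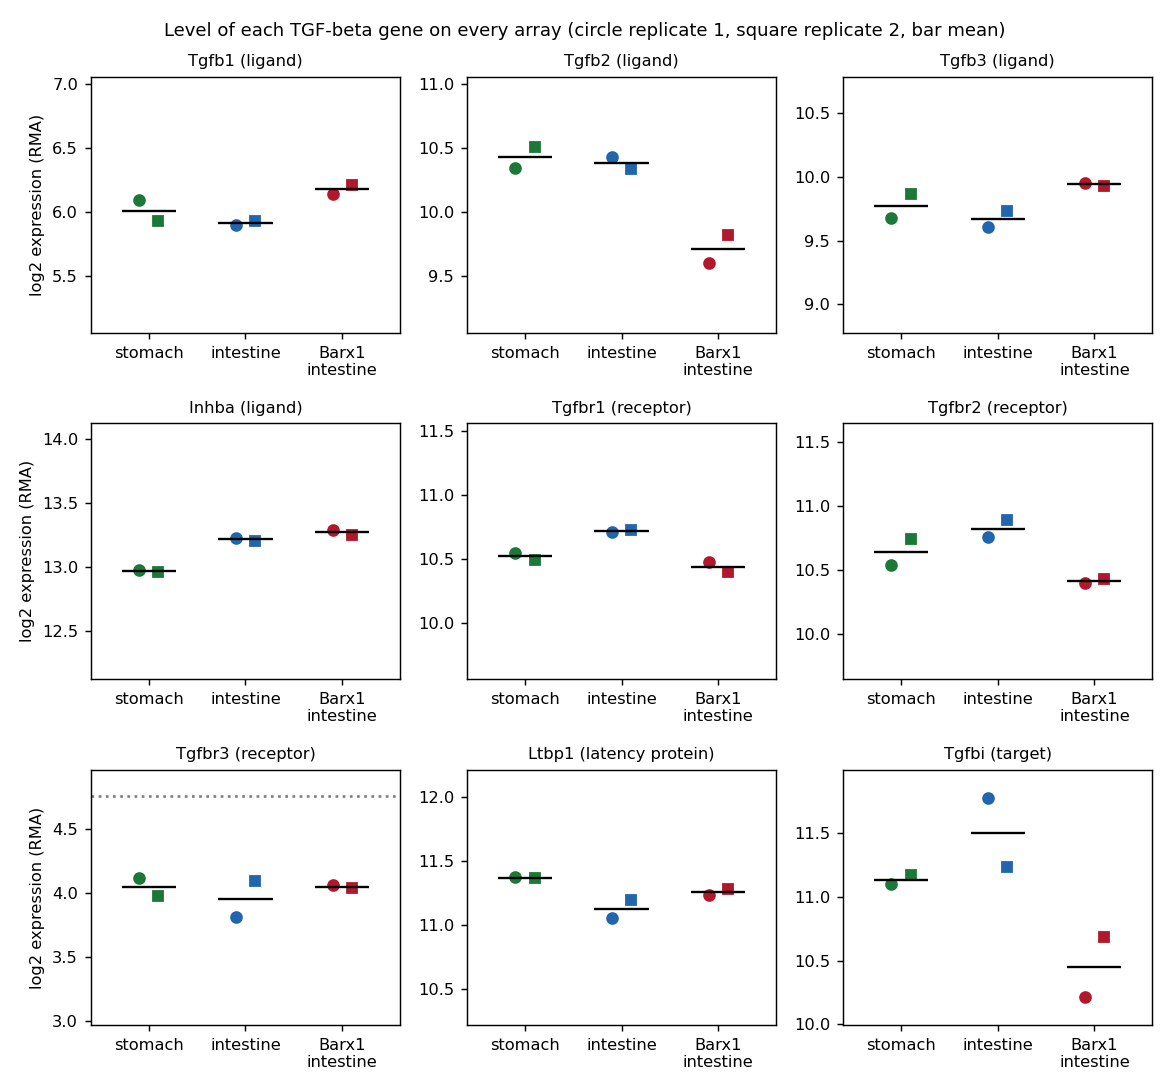
Each panel shows 1 gene, with log2 expression on the vertical axis (a span of 2 in every panel) and the 3 groups on the horizontal axis; circles are replicate 1, squares replicate 2 and bars the group means, and the dotted line in the Tgfbr3 panel is the highest lower quartile of the arrays. Tgfb2 reads 9.60 and 9.82 in Barx1 intestine, below the 4 control arrays at 10.34 to 10.51.

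Tgfb2 encodes TGF-beta 2, a ligand that needs the co-receptor betaglycan to bind Tgfbr2 well. The gene lies on chromosome 1 (GRCm38.p6, 186622787 to 186709697). Its level was 10.35 and 10.51 on the stomach arrays, 10.43 and 10.34 on the intestine arrays and 9.60 and 9.82 on the Barx1 intestine arrays. Both Barx1 intestine arrays lay below all 4 control arrays, and the control groups overlapped. Barx1 intestine was lower than intestine by a log2 difference of -0.67 (SE 0.10, adjusted p = 0.0352), position 415 of 12393 counted from the most negative. It differed from stomach by -0.71 (SE 0.10, adjusted p = 0.0268). Stomach and intestine differed by 0.04 (95% interval -0.21 to 0.30, adjusted p = 0.804). Because the arrays did not overlap, leaving out 1 array could not change the sign of either Barx1 intestine difference. These ran from -0.78 to -0.56 against intestine and from -0.82 to -0.60 against stomach. Leaving out either array of the group not compared gives the same fit, that of the 2 compared groups alone. Over the 6 fits that left out 1 array, which are thus fewer than 6 separate checks, stomach minus intestine ran from -0.037 to 0.124. The call against intestine was lost in all 6 of them (adjusted p from 0.0653 to 0.136), and that against stomach in 4 of 6, those without a stomach or a Barx1 intestine array (adjusted p from 0.0579 to 0.178).

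Tgfb2 had 3 probe sets. In a fit of all 20380 probe sets that name a single gene, all 3 were called lower in Barx1 intestine than in intestine, where 3.37% of all probe sets were called, and lower than in stomach, where 4.33% were. Probe set 1450922_a_at, which read 9.59 and 9.66 on the stomach arrays, 9.56 and 9.51 on the intestine arrays and 8.76 and 8.81 on the Barx1 intestine arrays, differed by -0.75 from intestine (SE 0.06, adjusted p = 0.00929) and by -0.84 from stomach (adjusted p = 0.00980). Its call against intestine held in 5 of 6 fits without 1 array and that against stomach in 3 of 6. Probe set 1450923_at differed by -0.56 (adjusted p = 0.0336) and -0.76 (adjusted p = 0.0145), and its calls were lost in 6 and 3 of the 6 fits. The platform annotation gives the same sequence record for all 3, and they were read from the same RNA, so they are no replicates of the samples.

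**Figure D2:**
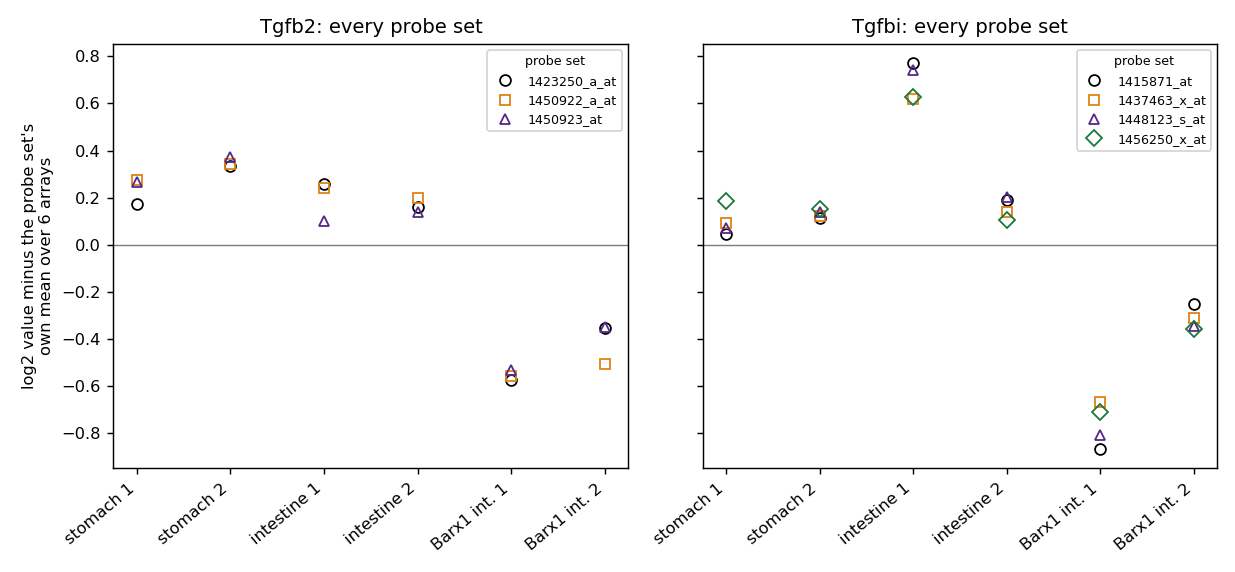
The vertical axis gives the log2 value minus the mean of that probe set over the 6 arrays, and the horizontal axis the arrays; each symbol is a probe set of Tgfb2 (left, 3 probe sets) or Tgfbi (right, 4 probe sets). For both genes every probe set lies below its own mean on both Barx1 intestine arrays, and for Tgfbi every probe set is highest on intestine replicate 1.

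A region before a transcript start of Tgfb2 and one of Inhba are shown because these were the members that passed the test in any comparison. Each is the 250 bases before the transcript start in the RefSeq promoter table (GRCm38.p6, Tgfb2 at chr1:186705990-186706239 on the minus strand, Inhba at chr13:16011601-16011850 on the plus strand), printed 5′ to 3′ with motif matches on either strand in capitals. Both stretches lie inside the span of their gene (186622787 to 186709697 for Tgfb2 and 16004256 to 16031609 for Inhba), so these are internal starts and not the outermost start of the gene, and exons of longer transcripts were not analysed here.
Tgfb2: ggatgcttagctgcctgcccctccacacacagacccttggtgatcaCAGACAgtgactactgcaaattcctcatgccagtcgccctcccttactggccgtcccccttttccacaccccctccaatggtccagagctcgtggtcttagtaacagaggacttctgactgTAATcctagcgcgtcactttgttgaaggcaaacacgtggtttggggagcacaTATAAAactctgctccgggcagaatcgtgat
Inhba: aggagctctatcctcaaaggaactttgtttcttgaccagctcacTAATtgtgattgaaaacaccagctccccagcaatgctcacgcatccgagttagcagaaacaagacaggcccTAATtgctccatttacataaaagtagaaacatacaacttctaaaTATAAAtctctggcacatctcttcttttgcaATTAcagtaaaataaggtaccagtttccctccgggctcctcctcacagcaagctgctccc
The 6 motifs searched on both strands were the homeodomain core TAAT, the cyclic AMP response element TGACGTCA, the AP-1 site TGANTCA, the Smad binding element GTCTAGAC, the Smad box CAGACA and the TATA box TATAAA. Motifs may overlap, and no capitals of different motifs touch in the sequences printed. Tgfb2 held the TATA box at position -31, counted from the first base of that transcript as 1 with no 0, the core TAAT at -83 and the Smad box at -204. Inhba held the TATA box at -91 and the core TAAT at -206, -135 and -60. Of 32851 promoters of the same length, 12.4% held the TATA box, 54.9% the core TAAT and 17.1% the Smad box. Matches of this length describe the letters only. Sequences were found for 7 of the 9 genes.

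Tgfb1, the ligand made widely by mesenchymal and immune cells, lies on chromosome 7. It read 6.09 and 5.93 on the stomach arrays, 5.90 and 5.93 on the intestine arrays and 6.15 and 6.21 on the Barx1 intestine arrays. The Barx1 intestine arrays were the highest, while stomach and intestine overlapped. Barx1 intestine minus intestine was 0.26 (95% interval 0.07 to 0.45, adjusted p = 0.116), and Barx1 intestine minus stomach was 0.17 (adjusted p = 0.252, with a difference of 0.08 to 0.25 without 1 array). Tgfb3, a further TGF-beta ligand of embryonic mesenchyme, lies on chromosome 12. It read 9.68 and 9.86 on the stomach arrays, 9.60 and 9.73 on the intestine arrays and 9.95 and 9.93 on the Barx1 intestine arrays. Here too the Barx1 intestine arrays lay above the rest, by 0.27 over intestine (95% interval 0.06 to 0.49, adjusted p = 0.134) and by 0.17 over stomach (adjusted p = 0.292, with a difference of 0.08 to 0.26 without 1 array). The intervals of Tgfb1 and Tgfb3 against intestine lay above 0 before adjustment over genes, and that of Tgfb2 (-0.92 to -0.42) lay below it. Tgfb1 and Tgfb3 each had 1 probe set.

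Inhba encodes the beta A subunit whose dimer is activin A, and lies on chromosome 13. It read 12.98 and 12.96 on the stomach arrays, 13.23 and 13.20 on the intestine arrays and 13.29 and 13.25 on the Barx1 intestine arrays. Both stomach arrays lay below the other 4, and the groups did not overlap. Stomach minus intestine was -0.25 (SE 0.05, adjusted p = 0.0348), and Barx1 intestine minus stomach was 0.30 (SE 0.05, adjusted p = 0.0435). Barx1 intestine and intestine differed by 0.05 (95% interval -0.08 to 0.19, adjusted p = 0.615). The replicates of a group differed by an SD of 0.02 at most. Both calls were lost in every fit without 1 array, where the differences ran from -0.26 to -0.24 and from 0.28 to 0.32. Because the stomach arrays lay below the other 4, such a fit could not change the sign of either difference. In the fit of all probe sets the only probe set of Inhba was called for stomach minus intestine (adjusted p = 0.0420, where 14.9% of all probe sets were called) and missed the threshold for Barx1 intestine minus stomach (adjusted p = 0.0505).

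**Figure D3:**
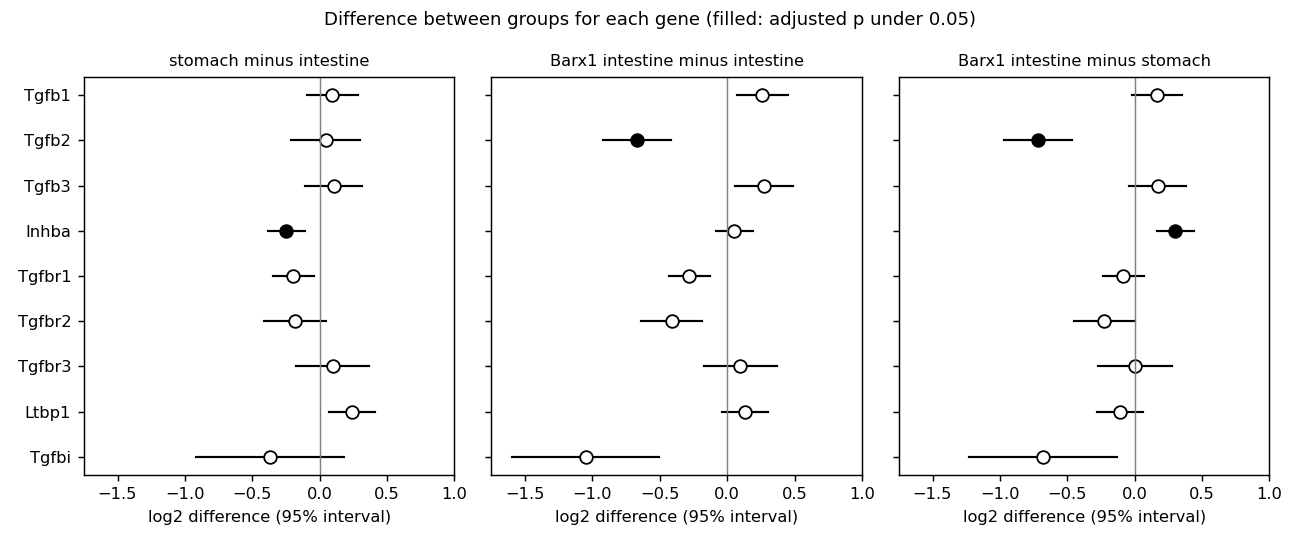
Points give the log2 difference of each gene in the 3 comparisons (1 panel each), lines the 95% interval of the limma fit, and filled points an adjusted p under 0.05. Tgfb2 is filled in both comparisons of Barx1 intestine (-0.67 and -0.71), Inhba in both comparisons of stomach (-0.25 and 0.30), and no other gene is filled.

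Ltbp1, on chromosome 17, encodes a latent TGF-beta binding protein that anchors the latent complex in the matrix. It read 11.37 and 11.36 on the stomach arrays, 11.06 and 11.20 on the intestine arrays and 11.24 and 11.28 on the Barx1 intestine arrays. The 3 groups did not overlap and stood in the order stomach, Barx1 intestine, intestine. Neighbours in that order did not differ beyond the test: stomach exceeded Barx1 intestine by 0.11 (adjusted p = 0.379), and Barx1 intestine exceeded intestine by 0.13 (adjusted p = 0.310, with a difference of 0.06 to 0.20 without 1 array). Stomach minus intestine was 0.24 (95% interval 0.07 to 0.41, adjusted p = 0.0655). This difference passed when dim genes were left out (adjusted p = 0.0483) and with a variance trend (adjusted p = 0.0221). It did not pass with the 2 groups compared only (adjusted p = 0.0977) or with the replicate number as a block (adjusted p = 0.0889).

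Tgfbr1, the type I receptor kinase, on chromosome 4, read 10.55 and 10.49 on the stomach arrays, 10.71 and 10.73 on the intestine arrays and 10.48 and 10.40 on the Barx1 intestine arrays. The intestine arrays were the highest. Barx1 intestine minus intestine was -0.28 (95% interval -0.43 to -0.13, adjusted p = 0.0662), and stomach minus intestine was -0.20 (adjusted p = 0.0828). The first difference passed when dim genes were left out (adjusted p = 0.0488), and both passed with a variance trend (adjusted p = 0.0231 and 0.0326). Neither passed with the 2 groups compared only (adjusted p = 0.148 and 0.0981). Nor did they with the replicate number as a block (adjusted p = 0.0983 and 0.116). The other probe sets of the gene, 1420893_a_at and 1420894_at, lay below the lower quartile on every array.

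Tgfbr2, the ligand-binding type II receptor, on chromosome 9, read 10.54 and 10.74 on the stomach arrays, 10.76 and 10.89 on the intestine arrays and 10.40 and 10.43 on the Barx1 intestine arrays. Both Barx1 intestine arrays were below the other 4. The difference from intestine was -0.41 (95% interval -0.64 to -0.18, adjusted p = 0.0698) and that from stomach -0.23 (adjusted p = 0.207, with a difference of -0.33 to -0.12 without 1 array). With a variance trend the first difference passed (adjusted p = 0.0295). It did not pass when dim genes were left out (adjusted p = 0.0576) or with the 2 groups compared only (adjusted p = 0.110). Nor did it with the replicate number as a block (adjusted p = 0.0705). A further probe set of the gene, 1425444_a_at, differed by -0.19 between Barx1 intestine and intestine (adjusted p = 0.406), and 1422019_at lay below the lower quartile on every array. Tgfbr3, on chromosome 5, encodes betaglycan, the co-receptor that presents Tgfb2 to Tgfbr2. Its single probe set read between 3.81 and 4.12 on the 6 arrays, below the lower quartile on each, so no order of its groups can be given.

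Tgfbi encodes a secreted matrix protein named for its induction by TGF-beta, and lies on chromosome 13. It read 11.10 and 11.17 on the stomach arrays, 11.77 and 11.23 on the intestine arrays and 10.22 and 10.68 on the Barx1 intestine arrays. The Barx1 intestine arrays were the lowest, and replicates of both intestine groups lay far apart (SD 0.38 in intestine and 0.33 in Barx1 intestine, against 0.05 in stomach). Barx1 intestine minus intestine was -1.05, a 2.07-fold lower level (SE 0.22, 95% interval -1.60 to -0.50), and it missed the threshold (adjusted p = 0.0630). This was position 213 of 12393 from the most negative difference. With a variance trend it passed (adjusted p = 0.0287). It did not pass when dim genes were left out (adjusted p = 0.0548) or with the 2 groups compared only (adjusted p = 0.138). Nor did it with the replicate number as a block (adjusted p = 0.104). The difference from stomach was -0.68 (adjusted p = 0.138), and stomach minus intestine was -0.37 (adjusted p = 0.300). Without 1 array these ran from -0.91 to -0.45 and from -0.64 to -0.10, and Barx1 intestine minus intestine from -1.32 to -0.78. All 4 probe sets gave the same order of the group means, with Barx1 intestine minus intestine between -1.05 and -0.87 and adjusted p from 0.0642 to 0.0904 over all probe sets. The names of 3 of them end in _s_at or _x_at, which marks probes that can match further sequences.

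Tgfb2 and Tgfbi had their lowest means in Barx1 intestine, and markers of other cells were read in the same 3 comparisons. Of the 16 macrophage genes 6 were called lower and 0 higher in Barx1 intestine than in intestine (median -1.84), of 9 enteric neuron and glia genes 4 lower and 0 higher (median -1.05), and of 13 endoderm epithelium genes 1 lower and 0 higher (median -1.06). Between Barx1 intestine and stomach 0 of 16 macrophage genes and 0 of 13 epithelium genes were called, with medians of -0.91 and 0.48. There 2 of 9 enteric neuron and glia genes were called lower and 0 higher (median -0.39). In stomach minus intestine 0 of 16 macrophage genes were called (median -1.02). In that comparison 2 of 13 epithelium genes were called lower and 0 higher (median -1.45). Of 9 enteric neuron and glia genes 3 were called lower and 0 higher (median -0.29). Tgfbi was highest on intestine replicate 1, the array with the highest epithelium sum (24134), and the macrophage sum was highest on intestine replicate 2 (19599.6). Across the Barx1 intestine arrays Tgfbi and the macrophage sum were both lower on replicate 1 (3408) than on replicate 2 (6761). The epithelium sum went the other way there, with 11431 on replicate 1 and 7278 on replicate 2. The part of these cell types in the results for Tgfbi, Tgfb2 and the receptors was not tested.

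**Figure D4:**
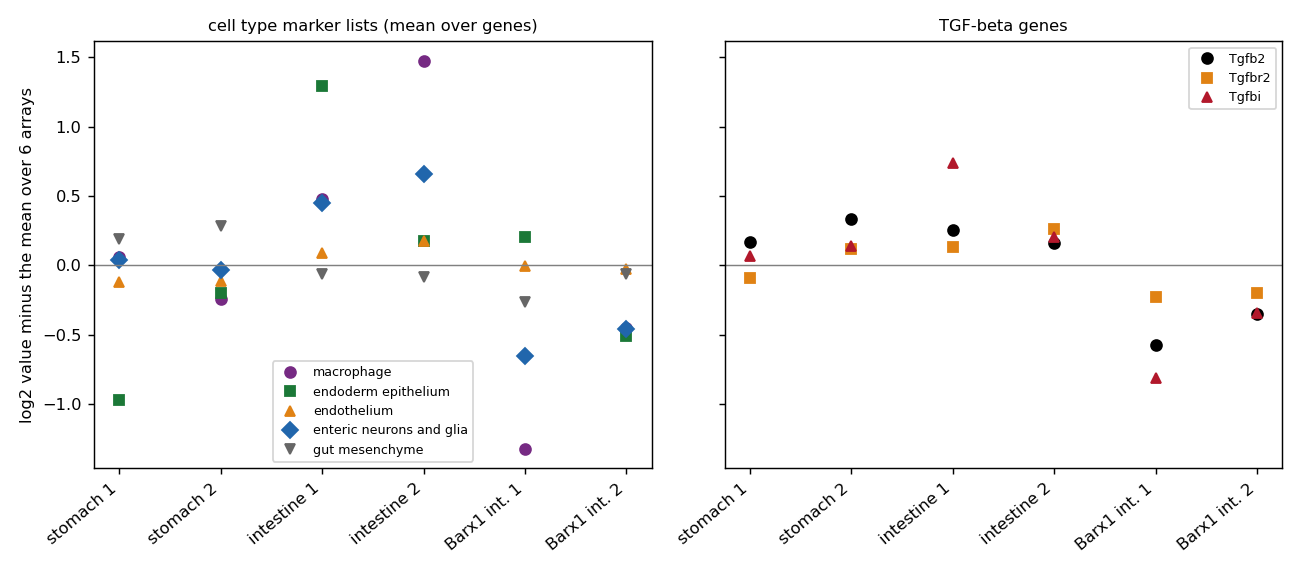
The vertical axis gives the log2 value minus its mean over the 6 arrays, and the horizontal axis the arrays; points on the left are means over the genes of 5 marker lists, and points on the right are single TGF-beta genes. The macrophage list stands at 1.47 on intestine replicate 2 and at -1.32 on Barx1 intestine replicate 1, while Tgfbi stands highest on intestine replicate 1.

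The rest of the pathway was described with lists of other ligands, latency and activation proteins, other receptors, extracellular antagonists, intracellular mediators and textbook target genes, 92 further measured genes in all. In stomach minus intestine 21 of the 92 were higher and 10 lower (33.7% called, against 16.9% of all genes), with a median of 0.09 beside 0.02 over all genes. Between Barx1 intestine and intestine 4 were higher and 3 lower (7.61%, against 3.98%), with a median of -0.02 beside 0.02. Between Barx1 intestine and stomach 5 were higher and 14 lower (20.7%, against 5.2%), with a median of -0.07 beside -0.00077. The lists overlap, and Smad7, for example, counts as a mediator and as a target. They were chosen with earlier results of these data known, so the shares are a description only. High shares were not particular to them. Of 11 gut mesenchyme genes 63.6%, 18.2% and 45.5% were called in the same order of comparisons. Of 11 smooth muscle genes it was 45.5%, 0% and 27.3%, and some genes of both lists are also among the targets. Col1a1, Col1a2 and Lox, genes of fibrillar matrix, passed the test as higher in stomach against intestine and as lower in Barx1 intestine against stomach.

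**Figure D5:**
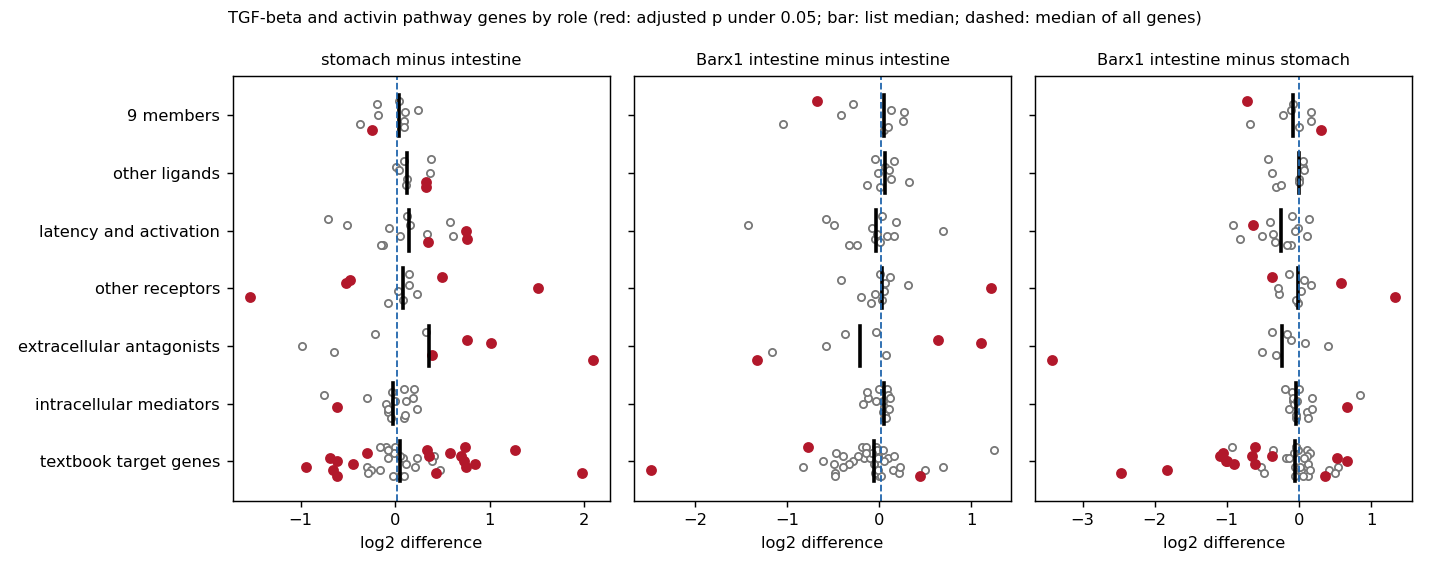
Each point is the log2 difference of a gene in 1 of 3 comparisons (panels), grouped by role on the vertical axis; red points passed at an adjusted p under 0.05, black bars are list medians and the dashed line is the median of all genes. Fst (1.10), Bgn (0.64) and Aspn are the 3 of 8 antagonists called in Barx1 intestine minus intestine; Aspn was not shown to be above background in Barx1 intestine, so its plotted differences from that group are not measured sizes.

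Of 8 extracellular antagonists 4 were called as higher in stomach against intestine, and 2 higher and 1 lower in Barx1 intestine than in intestine. Fst encodes follistatin, which binds and blocks activins. It read 10.84 and 10.64 on the stomach arrays, 9.69 and 9.75 on the intestine arrays and 10.85 and 10.80 on the Barx1 intestine arrays. The intestine arrays lay below all others, by 1.01 under stomach (SE 0.08, adjusted p = 0.00370) and by 1.10 under Barx1 intestine (SE 0.08, adjusted p = 0.00768). Barx1 intestine and stomach differed by 0.09 (adjusted p = 0.566). The call for stomach held in all 6 fits without 1 array and that for Barx1 intestine in 5 of 6. Bgn, a small matrix proteoglycan that binds TGF-beta, lay lowest on the intestine arrays as well, with 12.98 and 13.04 on the stomach arrays, 12.26 and 12.24 on the intestine arrays and 12.83 and 12.95 on the Barx1 intestine arrays. It was higher in stomach by 0.76 (adjusted p = 0.00426) and in Barx1 intestine by 0.64 (adjusted p = 0.0167), and the latter call was lost in 5 of 6 fits without 1 array. The proteoglycan gene Aspn, whose product also binds TGF-beta, was higher in stomach than in intestine (2.09, adjusted p = 0.00692) and lower in Barx1 intestine than in intestine (fitted difference -1.33, adjusted p = 0.0492). Barx1 intestine was lower than stomach as well (fitted difference -3.42, adjusted p = 0.0109), a call not kept in every fit without 1 array. No other of the 8 antagonists was called in that comparison. In Barx1 intestine Aspn read 4.08 and 4.39, below the lower quartile. It was thus not shown to be above background there, and neither fitted difference from that group is a measured size. Its calls for stomach minus intestine and Barx1 intestine minus intestine were lost in 1 and 5 of 6 fits without 1 array. Fstl1, a follistatin-like gene, was higher in stomach than in intestine by 0.39 (adjusted p = 0.0214), a call lost in 4 of 6 such fits.

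Receptors other than the TGF-beta pair moved both ways. Of 11 measured, 2 were higher and 3 lower in stomach than in intestine. Cd109, a membrane-anchored TGF-beta co-receptor that dampens signalling, read 8.74 and 8.70 on the stomach arrays, 7.41 and 7.0 on the intestine arrays and 8.26 and 8.59 on the Barx1 intestine arrays. The intestine arrays were again the lowest, under stomach by 1.51 (SE 0.17, adjusted p = 0.00630) and under Barx1 intestine by 1.22 (SE 0.17, adjusted p = 0.0283). These calls were lost in 2 and 5 of 6 fits without 1 array. Bambi, a pseudoreceptor without a kinase domain, was higher in stomach than in intestine (0.49, adjusted p = 0.00864) and lower in Barx1 intestine than in stomach (-0.37, adjusted p = 0.0363). Acvr1b, the type I receptor of activins, read 8.37 and 8.31 on the stomach arrays, 8.91 and 8.80 on the intestine arrays and 8.90 and 8.95 on the Barx1 intestine arrays. Like Inhba it was lower in stomach than in both kinds of intestine (stomach minus intestine -0.52, adjusted p = 0.00904; Barx1 intestine minus stomach 0.59, adjusted p = 0.0166). Acvrl1, the type I receptor of endothelial cells, was lower in stomach than in intestine (-1.54, adjusted p = 0.0134) and higher in Barx1 intestine than in stomach (1.34, adjusted p = 0.0412). The summed signal of 12 endothelial genes was 792 to 828 in stomach, 1041 to 1065 in intestine and 868 to 918 in Barx1 intestine, with 4 to 7 of the 12 at or below the lower quartile, and its part in the Acvrl1 values was not tested. Without 1 array, the calls of Bambi, Acvr1b and Acvrl1 were lost in 2, 2 and 3 of 6 fits against intestine and in 4 of 6 each between Barx1 intestine and stomach.

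Latency and activation genes included Ltbp2, a matrix protein of the same family as Ltbp1, which was higher in stomach than in intestine (0.75, adjusted p = 0.0321). Its difference between Barx1 intestine and intestine was 0.70 and missed the threshold (adjusted p = 0.0736). Ltbp3 (0.34, adjusted p = 0.0317) and the integrin subunit gene Itgb5 (0.76, adjusted p = 0.0416) were higher in stomach than in intestine as well. Emilin1, an extracellular glycoprotein that holds back the processing of TGF-beta precursors, was lower in Barx1 intestine than in stomach (-0.64, adjusted p = 0.0466). It differed from intestine by -0.49 (adjusted p = 0.0858). Both calls among other ligands, Inhbc (0.33, adjusted p = 0.0234) and Gdf10 (0.33, adjusted p = 0.0276), were for stomach minus intestine and lay near the lower quartile, at 4.73 to 5.09 in group means. Gdf10 lay below the lower quartile on replicate 1 of intestine (4.71) and of Barx1 intestine (4.68). It was not shown to be above background on these arrays, so its fitted difference is not a measured size. The calls of Ltbp2, Ltbp3, Itgb5, Inhbc and Gdf10 were each lost in 4 of 6 fits without 1 array, and that of Emilin1 in all 6.

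Of 16 intracellular mediators, Smad7 was the only one called in stomach minus intestine and in Barx1 intestine minus stomach. Smad7 is an inhibitory Smad that is itself induced by TGF-beta. It read 9.77 and 9.74 on the stomach arrays, 10.39 and 10.35 on the intestine arrays and 10.48 and 10.36 on the Barx1 intestine arrays. The stomach arrays lay below the other 4, with a stomach minus intestine difference of -0.62 (SE 0.06, adjusted p = 0.00536) and a Barx1 intestine minus stomach difference of 0.67 (adjusted p = 0.0140). These calls were lost in 1 and 3 of 6 fits without 1 array.

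Of 39 textbook target genes 11 were higher and 7 lower in stomach than in intestine. Col1a2 (1.98, adjusted p = 0.00326) and Sphk1, a sphingosine kinase gene (0.85, adjusted p = 0.00462), were higher, and the cell cycle inhibitor gene Cdkn1a was lower (-0.69, adjusted p = 0.00464). In Barx1 intestine minus intestine 1 of 39 was higher and 2 lower. The higher gene was Klf10, an early TGF-beta response factor, which read 9.84 and 9.76 on the intestine arrays and 10.28 and 10.22 on those of Barx1 intestine (0.45, SE 0.07, adjusted p = 0.0342). The lower genes were Postn (-2.48, adjusted p = 0.00477) and Timp3, a metalloproteinase inhibitor that read 11.41 on both intestine arrays and 10.67 and 10.61 in Barx1 intestine (-0.77, SE 0.06, adjusted p = 0.00703). Timp3 and Postn kept their calls in all 6 fits without 1 array, and Klf10 lost its call in all 6. In Barx1 intestine minus stomach 3 were higher and 11 lower, the latter with Col1a2 (-2.46), the collagen crosslinking enzyme gene Lox (-1.10), Postn (-1.82) and Sphk1 (-0.90), with adjusted p of 0.0123 or less. These calls were lost in 3 of 6 fits without 1 array, and in 4 of 6 for Sphk1. The 3 comparisons share arrays and are not independent.

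Acta2 and Col1a1 gave the level of smooth muscle and matrix genes beside these regulators. The mean of Acta2 was 14.61 for stomach, and 14.56 for each of the intestine groups, near the top of the range of the arrays, and none of its differences passed (adjusted p from 0.561 to 0.994). Col1a1 read 11.37 and 11.40 on the stomach arrays, 10.65 and 10.67 on the intestine arrays and 10.24 and 10.50 on the Barx1 intestine arrays. It was higher in stomach than in intestine by 0.72 (adjusted p = 0.00940, lost in 2 of 6 fits without 1 array), and Barx1 intestine minus stomach was -1.01 (adjusted p = 0.0128, lost in 3 of 6 such fits). Barx1 intestine minus intestine was -0.29 (adjusted p = 0.149).

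The genes whose profile was most like that of a called member were taken by the root mean square difference of values centred on each gene's mean over the 6 arrays. For Tgfb2 they were Slamf9, a receptor gene of the SLAM family (0.081), Emilin1 (0.081) and Slc7a7, an amino acid transporter gene (0.12), beside an SD of 0.37 for Tgfb2 itself. For Inhba they were Aagab (0.010), Eif4e3 (0.022) and S100a10 (0.024), beside an SD of 0.14. The arrays of all genes are the same, and 3 group means fix most of such a profile.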

How the data were processed

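RNA of 6 cultures was measured on Affymetrix arrays. The log2 values were deposited by the authors, and RMA is the method that the submitters' processing notes name, without a version; the log2 scale was judged from the range of the values. RMA removes shifts shared by most genes. No scanner files were used, so background correction could not be varied. Of 22690 probe sets 20380 named 1 gene by the platform annotation, 691 several and 1606 none; 64 controls were left out. The 12393 genes were each read at the probe set with the highest mean. All arrays entered 1 fit of 3 group means with limma 3.58.1 in R 4.3.3 (tables were read with data.table, version 1.17.8), with 3 residual and 2.58 prior degrees of freedom, and p was adjusted by Benjamini-Hochberg over all genes, or over all probe sets. SE and 95% intervals are those of the moderated fit. Simulated data with known changes were used to test the script.

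Members and lists were chosen with earlier results of these data known. Named were the 9 members, Barx1, Acta2, Col1a1, up to 4 called genes with the smallest p per list and comparison, and the 3 profiles nearest to each called member. Promoters and coordinates are from RefSeq (GRCm38.p6). The labels call the samples biological replicates; no scan batch was known, and 2 arrays a group set the precision. Alternatives were a filter on dim genes, 2 scalings, 2 probe set rules, a variance trend, 2-group fits, the replicate number as a block, other thresholds and leaving out each array.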

Additional observations from a re-analysis of the deposited data

How the results depend on the processing

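Of 375 alternative values for the 9 genes, 331 kept their direction and side of the threshold, 30 lost the call, 7 gained one and 7 changed sign. Most of these values belong to differences that were never called and had no call to lose. The alternatives are not all separate checks. Leaving out either array of the group not compared repeats the fit of the 2 compared groups alone, so counts over alternatives hold that fit more than once. Inhba lost its call in 9 of 14 alternatives in each of its 2 called comparisons. Tgfb2 lost its call in 8 of 14 against intestine and in 4 of 14 against stomach. Shifts of the median by the 2 scalings were 0.03 or less. In stomach minus intestine, 1 of the 9 genes was called, 2 with dim genes left out, 3 with a variance trend or at an adjusted p under 0.10, and 0 with the probe set of largest SD, with the 2 groups compared only, with the replicate number as a block or under 0.01. In Barx1 intestine minus intestine it was 1, and 2 with dim genes left out, 4 with a trend or under 0.10, and 0 with 2 groups only, the replicate block or under 0.01. In Barx1 intestine minus stomach it was 2, and 1 with the largest SD, 2 groups only or the replicate block, and 0 under 0.01. Without 1 array these counts were 0 to 0, 0 to 0 and 0 to 1. The 7 calls of member probe sets became 16 with a trend, 4 with 2 groups only, 17 under 0.10, 2 under 0.01 and 0 to 4 without 1 array.

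Over all genes, the 2100 calls in stomach minus intestine became 3310 under 0.10, 512 under 0.01 and 281 to 1692 without 1 array. The 493 calls in Barx1 intestine minus intestine became 1037 with a trend, 50 with 2 groups only, 267 with the replicate block, 1316 under 0.10, 40 under 0.01 and 50 to 466 without 1 array. The 644 in Barx1 intestine minus stomach became 1189 with a trend, 337 with the replicate block, 1516 under 0.10, 11 under 0.01 and 0 to 727 without 1 array. The replicate numbers were not treated as pairs: same-numbered arrays deviated with correlations of -0.22, -0.06 and 0.20. The cause of these moves was not tested, and fits that left out an array also held fewer arrays.

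Sign changes were found at differences that had not been called. Without 1 array, stomach minus intestine ran from -0.037 to 0.124 for Tgfb2 and from -0.0456 to 0.239 for Tgfbr3. It was 0.0198 for Tgfbr1 by the mean of its probe sets, which includes its dim ones, and -0.0248 or -0.10 for Acta2 by the mean or the probe set of largest SD. Barx1 intestine minus intestine, without 1 array, ran from -0.0442 to 0.24 for Tgfbr3, -0.0539 to 0.0672 for Gdf10, -0.0541 to 0.0663 for Ltbp3, -0.33 to 0.23 for Itgb5, -0.53 to 0.12 for Acvrl1, -0.00799 to 0.11 for Smad7 and -0.0134 to 0.0114 for Acta2. It was -0.0306 for Ltbp3 by the mean of its probe sets, and for Acta2 0.0302 with median centring, 0.10 by the mean and 0.20 by the largest SD. Barx1 intestine minus stomach, without 1 array, ran from -0.071 to 0.0737 for Tgfbr3, -0.0442 to 0.0445 for Inhbc, -0.26 to 0.16 for Ltbp2 and -0.011 to 0.19 for Fst, and was 0.12 and 0.30 for Acta2 by the mean and the largest SD. Signal near the lower quartile limits Tgfbr3, Inhbc, Gdf10 and Aspn.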
